A study of Homo sapiens with 16 samples.

Results

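Chamber and conduction identity transcription factors were examined in cardiomyocytes made from human induced pluripotent stem cells (hiPSC-CMs). The 9 genes were IRX4, HEY2, HEY1, NR2F2, NR2F1, TBX2, TBX3, TBX18 and SHOX2. They were taken by symbol from the 59385 symbols of the RNA-Seq count table, in all 16 libraries, and each had at least 1 count in some library. In the first experiment, cells were lipofected with a LINC00881 plasmid, which carries the full-length cDNA of this long noncoding RNA behind a CMV promoter, or with a control plasmid that codes for bacterial alkaline phosphatase. In the second experiment, they received antisense locked nucleic acid GapmeRs, oligonucleotides that direct RNase H to LINC00881, or a scrambled oligonucleotide. All 4 groups had 4 libraries each, were made from the single hiPSC line WTC-11 and were sampled between day 15 and day 35 of culture. The comparisons ask whether the genes that set atrial, ventricular and conduction identity changed when LINC00881 was raised or lowered, and whether replicates 1 and 2 differed from replicates 3 and 4 of the knockdown experiment. In the labels, the tube numbers of replicates 1 and 2 of both treatments precede those of replicates 3 and 4. The labels do not say what divides the sets.

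In the developing heart, chamber identity is set by transcription factors that switch on the genes of one chamber and keep off those of another. IRX4, an Iroquois homeodomain protein, and HEY2, a hairy-related repressor downstream of Notch, mark ventricular myocardium, and HEY1 is the related repressor of atrial myocardium. The nuclear receptors NR2F1 and NR2F2 (COUP-TFI and COUP-TFII) are needed for the atrial program. TBX2 and TBX3 are T-box repressors that keep the atrioventricular canal and the conduction system from becoming working myocardium, and TBX18 and SHOX2 act in the sinus node.

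Notch signaling reaches the HEY genes through the DNA-binding protein RBPJ, whose core site is written GTGGGAA on one strand and TTCCCAC on the other. E-boxes of the form CACGTG are the kind of site that hairy-related repressors can bind. Promoter sequences were taken from RefSeq (GRCh38.p14), which gave 10 entries for 6 of the 9 genes, each reaching 250 bases before and 50 after a start site. HEY1, TBX2 and TBX3 had no entry and were not searched. The HEY2 promoter is shown, up to the first base of the exon annotated there in GENCODE 29, because HEY2 lies downstream of Notch and differed in level between the replicate sets. A HEY2 window nearer the start site and a TBX18 window are shown beside it. The promoter lies at chr6:125749382-125749579 and the HEY2 window at chr6:125749620-125749643, both on the plus strand, and the TBX18 window at chr6:84764588-84764611 on the minus strand, and the capitals mark the RBPJ core on either strand.
HEY2 promoter: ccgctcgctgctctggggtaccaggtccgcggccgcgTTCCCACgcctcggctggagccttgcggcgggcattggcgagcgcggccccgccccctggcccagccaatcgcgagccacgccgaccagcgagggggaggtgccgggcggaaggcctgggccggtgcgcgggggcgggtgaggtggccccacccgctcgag
HEY2 window: gttgcggcGTGGGAAagagccgct
TBX18 window: gcaagttcTTCCCACcgctctcct

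The 198 bases of the HEY2 promoter hold the RBPJ core at position -213 from the RefSeq start site and are 78.8% G and C. The HEY2 window holds it at position -4, and all 24 of its bases are noncoding exon of a HEY2 transcript that begins further upstream in GENCODE 29. The TBX18 match lies at position -5. Of all 35116 promoters in the table, 6.25% hold this core within their window, and 2 of the 10 entries searched for these genes do. The NR2F2 windows at chr15:96332378-96332401 and chr15:96332435-96332458, on the plus strand, hold the only E-boxes found, marked by capitals. They lie in 1 of the 10 entries, and 7.26% of all promoters hold such a site.
NR2F2 window a: cggccagttCACGTGcgagggctg
NR2F2 window b: cctgagctaCACGTGccgcgccaa

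Both NR2F2 windows precede the start of a short RefSeq transcript and lie, in all 24 bases, within coding sequence of a longer NR2F2 transcript in GENCODE 29. A T-box core (AGGTGTGA, in 0.98% of promoters), the nuclear receptor half-site AGGTCA (13.8%), the GATA site AGATAA (10.3%) and the MEF2 site (0.128%), each searched on both strands, were not found in the windows of the 6 genes. A match is a run of letters and was not tested for binding.

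The 9 genes lie on 7 chromosomes in GRCh38. IRX4 (ENSG00000113430.9) lies on chromosome 5 at 1877413 to 1887236, and NR2F1 (ENSG00000175745.12) on the same chromosome at 93583224 to 93594615. HEY2 (ENSG00000135547.8) and TBX18 (ENSG00000112837.16) lie on chromosome 6, at 125747664 to 125761269 and at 84687351 to 84764519. SHOX2 (ENSG00000168779.19) is on chromosome 3 at 158095954 to 158106503, 994819 bases from LINC00881. NR2F2 (ENSG00000185551.14) spans 96325938 to 96340263 of chromosome 15, TBX2 (ENSG00000121068.13) spans 61399896 to 61409466 of chromosome 17, TBX3 (ENSG00000135111.15) spans 114670254 to 114684164 of chromosome 12 and HEY1 (ENSG00000164683.16) spans 79764010 to 79767863 of chromosome 8. IRX4, TBX18, SHOX2, TBX3 and HEY1 lie on the minus strand and the others on the plus strand. The reads were counted without regard to strand, so reads from overlapping antisense exons cannot be told apart. Such overlap covers 158 bases of NR2F1 with NR2F1-AS1, 156 bases of SHOX2 with RSRC1 and 28 bases of TBX2 with AC005746.2, and the values of these 3 genes carry that uncertainty. NR2F2 shares 47 exon bases with MIR1469 on the same strand.

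Libraries held 11272633 to 16415025 counts with the LINC00881 plasmid and 9833533 to 13493729 with the control plasmid. They held 26979162 to 37332620 counts with the GapmeRs and 29279325 to 37033017 with the scrambled oligonucleotide. Mitochondrial transcripts took 5.14% to 6.64% of counts in the overexpression experiment and 18.7% to 23.6% in the knockdown experiment. The mitochondrial ribosomal RNA MT-RNR2 alone took 0.735% to 1.01% in the overexpression experiment and 13.0% to 16.6% in the knockdown experiment. The targeted RNA moved as labelled. LINC00881 was present at 476, 451, 438 and 406 CPM (counts scaled to a common library size) with its plasmid, against 87.4, 143, 98.2 and 92.1 CPM with the control plasmid, and at 11.3, 26.7, 19.7 and 21.8 CPM with the GapmeRs, against 126, 149, 54.8 and 54.7 CPM with the scrambled oligonucleotide. All 10 cardiomyocyte markers, among them TNNT2, ACTN2 and TTN, were detected, with summed levels of 26492 to 32277 CPM in the overexpression experiment and 13630 to 21528 CPM in the knockdown experiment. The smallest exact p that 4 libraries against 4 allow is 0.0286.

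IRX4 and TBX2 were the most abundant of the 9 genes in the overexpression experiment. Levels between genes are given as CPM per kilobase of merged exon, and the experiments were scaled separately. With the LINC00881 plasmid, IRX4 averaged 10.3 ± 1.61 and TBX2 9.55 ± 0.547 CPM per kb (SD, n = 4), and with the control plasmid 9.11 ± 1.51 and 9.43 ± 0.973, so that these neighbors in the order overlapped. With the LINC00881 plasmid, TBX3 followed at 3.49, NR2F2 at 2.35, HEY1 at 1.67, HEY2 at 1.18 and TBX18 at 0.157 CPM per kb. With the control plasmid, the order was the same, with TBX3 at 3.67, NR2F2 at 2.53, HEY1 at 1.59, HEY2 at 1.06 and TBX18 at 0.178 CPM per kb. From TBX3 down to TBX18, neighbors in this order did not overlap within a group. In the knockdown experiment, IRX4 stood alone at the top, with 15.9 ± 11.3 CPM per kb with the GapmeRs and 24.5 ± 17.4 with the scrambled oligonucleotide. TBX2, TBX3, HEY1, HEY2 and NR2F2 lay below it, from 3.41 to 0.912 CPM per kb with the GapmeRs and from 3.75 to 0.847 with the scrambled oligonucleotide, and neighbors among them overlapped.

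NR2F1 and SHOX2 were barely detected. NR2F1, the atrial nuclear receptor, had 1 count in replicates 1 and 3 of the LINC00881 plasmid group and in replicate 2 of the control plasmid group, 6 counts in GapmeR replicate 4, 5 counts in scrambled replicate 3 and 0 in the other 11 libraries. SHOX2, a homeobox regulator of the sinus node, had at most 4 counts and was at 0 in 8 of 16 libraries. A count of 0 allows up to 3 counts, which is 0.182 to 0.302 CPM in the overexpression experiment and 0.0774 to 0.108 CPM in the knockdown experiment. Both genes failed the filter on low counts, so 7 of the 9 genes were tested, and a change in the other two was not detectable at this depth.

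**Figure D1:**
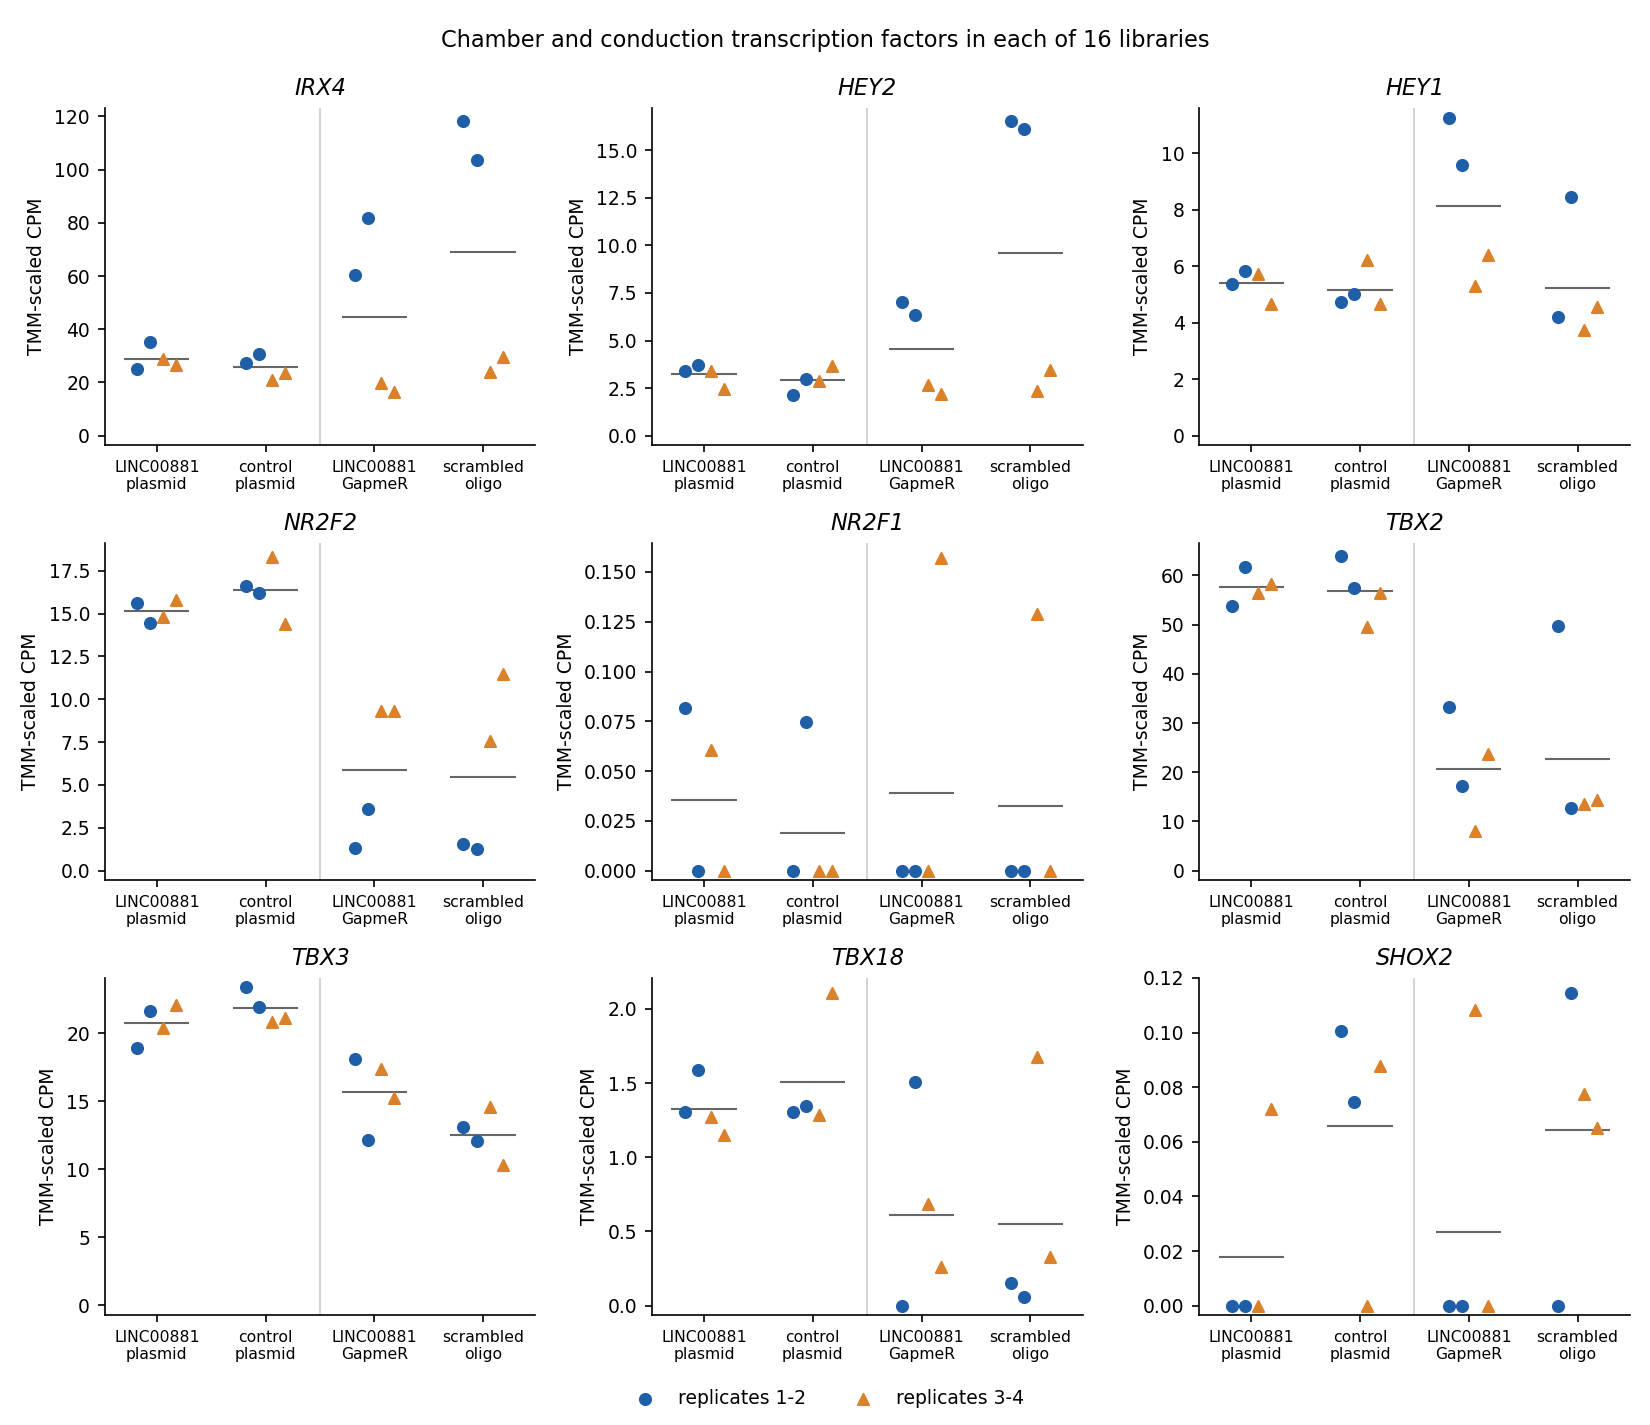
Levels of the 9 transcription factors in each of the 16 libraries, in TMM-scaled CPM, with 1 panel per gene, circles for replicates 1 and 2, triangles for replicates 3 and 4 and a horizontal line at each group mean, and with the vertical line dividing the experiments. IRX4 and HEY2 sit higher in replicates 1 and 2 than in replicates 3 and 4 of the knockdown experiment and NR2F2 sits lower, while in the plasmid groups HEY2 stays at 2.11 to 3.70 CPM and NR2F2 at 14.4 to 18.3 CPM.

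None of the 7 tested genes passed the test with LINC00881 overexpression. Of all 14355 genes tested, 12.1% passed an unadjusted p of 0.05, the cutoff used throughout, and 0.00697% an adjusted p of 0.05, so 0 of 7 stands beside that background. IRX4 was present at 24.9, 35.2, 28.9 and 26.5 CPM with the LINC00881 plasmid, against 27.3, 30.8, 21.1 and 23.5 CPM with the control plasmid. The highest library belonged to the LINC00881 plasmid and the lowest to the control plasmid, and the groups overlapped. The log2 fold change of IRX4 was 0.16 (SE 0.12, 95% interval -0.08 to 0.41, adjusted p = 0.589 by edgeR).

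The ventricular repressor HEY2 had 3.42, 3.70, 3.40 and 2.44 CPM with the LINC00881 plasmid, against 2.11, 2.99, 2.87 and 3.68 CPM with the control plasmid. Its log2 fold change was 0.14 (95% interval -0.27 to 0.54). NR2F2 had 15.6, 14.4, 14.8 and 15.8 CPM with the LINC00881 plasmid, against 16.6, 16.2, 18.3 and 14.4 CPM with the control plasmid. These ranges overlapped for both genes, and the interval for NR2F2 ran from -0.32 to 0.10 around a log2 fold change of -0.11.

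HEY1, the atrial repressor, was at 4.67 to 5.81 CPM with the LINC00881 plasmid and 4.65 to 6.23 CPM with the control plasmid (log2 fold change 0.07, 95% interval -0.24 to 0.37). The interval of TBX2 ran from -0.15 to 0.19, that of TBX3 from -0.26 to 0.12 and that of TBX18 from -0.73 to 0.33. All 7 genes overlapped between the groups, where 7.25% of all genes tested did not.

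With the GapmeRs, none of the 7 genes passed the test over all 8 libraries. The background was 8.35% of 18127 genes at the unadjusted cutoff and 0% at an adjusted p of 0.05. IRX4 had 60.5, 81.8, 19.9 and 16.4 CPM with the GapmeRs, against 118, 104, 24.0 and 29.7 CPM with the scrambled oligonucleotide. The first pair of each group exceeded the second, and within either pair both GapmeR libraries lay below both scrambled libraries. Over all 8 libraries the log2 fold change was -0.63 (SE 0.64, 95% interval -2.07 to 0.82, adjusted p = 0.853).

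For HEY2 the pairs differed more. It had 7.04, 6.33, 2.64 and 2.20 CPM with the GapmeRs, against 16.5, 16.1, 2.32 and 3.45 CPM with the scrambled oligonucleotide. Both GapmeR libraries of the first pair were under the scrambled ones, and those of the second pair overlapped them. The log2 fold change was -1.08 (SE 0.68, 95% interval -2.59 to 0.44, adjusted p = 0.713).

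HEY1 had 11.2, 9.59, 5.31 and 6.38 CPM with the GapmeRs, against 4.20, 8.43, 3.74 and 4.55 CPM with the scrambled oligonucleotide. Its GapmeR libraries lay above the scrambled ones within each pair, with a log2 fold change of 0.63 (95% interval -0.16 to 1.43, adjusted p = 0.676). TBX3 had 18.1, 12.1, 17.3 and 15.2 CPM with the GapmeRs, against 13.1, 12.1, 14.6 and 10.3 CPM with the scrambled oligonucleotide, a log2 fold change of 0.32 (95% interval -0.13 to 0.78, adjusted p = 0.715). NR2F2, TBX2 and TBX18 had log2 fold changes of 0.10, -0.13 and 0.13, with intervals reaching from -1.67 to 1.88, from -1.34 to 1.07 and from -2.66 to 2.93. All 7 genes overlapped between GapmeR and scrambled libraries, against 6.47% of all genes that did not.

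**Figure D2:**
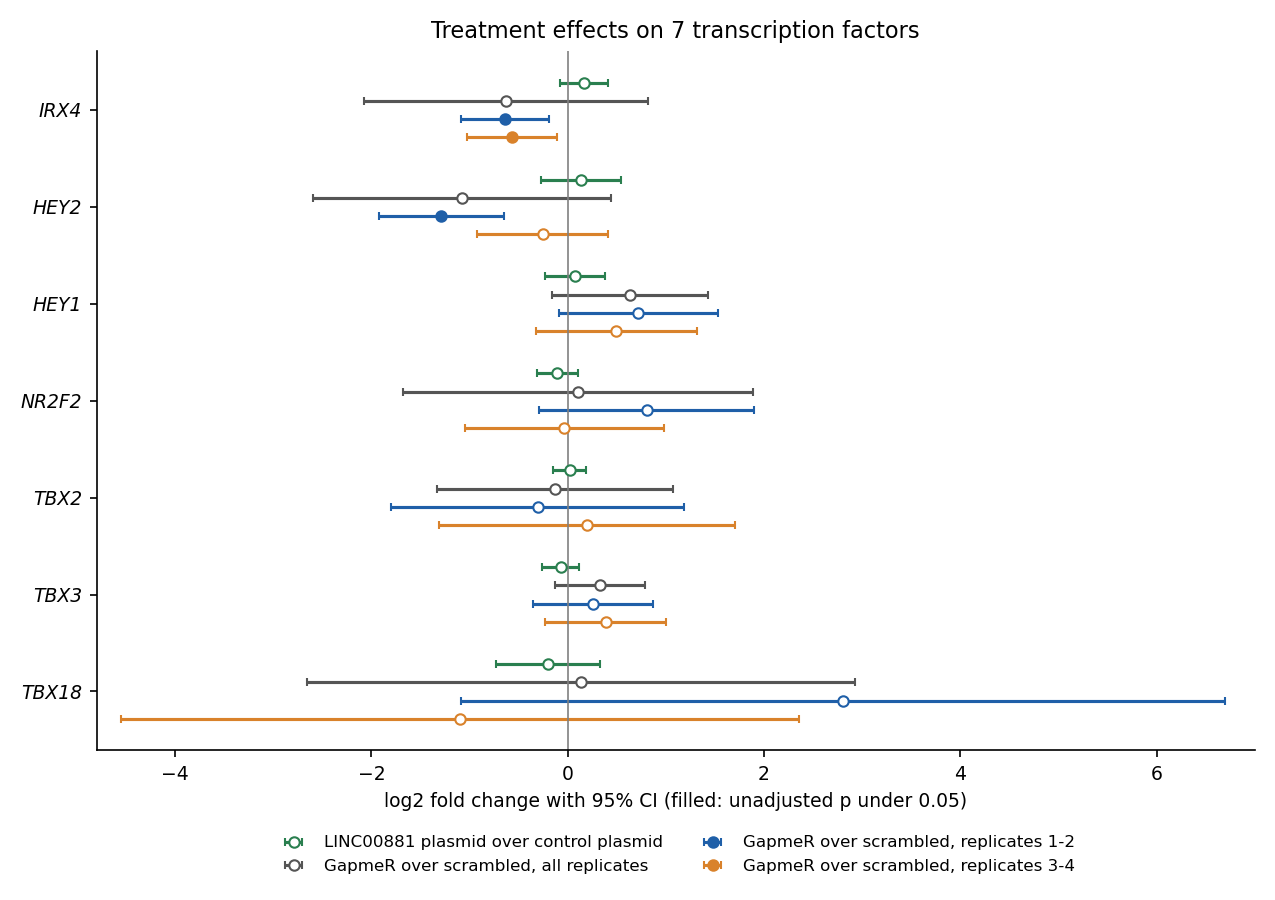
Log2 fold changes of the 7 tested transcription factors with LINC00881 overexpression and with LINC00881 knockdown, over all replicates and, for the knockdown, within replicates 1 and 2 and within replicates 3 and 4, with 95% intervals from edgeR and filled points where the unadjusted p was under 0.05. Over all replicates each interval includes 0, and those of the knockdown are the wider, with IRX4 from -2.07 to 0.82 against -0.08 to 0.41 with overexpression.

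With the replicate set added to the model, 3 of 7 genes passed the unadjusted cutoff and none the adjusted one, against 13.8% and 0% of all genes. IRX4 fell by 0.60 on the log2 scale (SE 0.14, 95% interval -0.93 to -0.28, adjusted p = 0.144). HEY2 had a log2 fold change of -0.79 (SE 0.27, adjusted p = 0.258) and HEY1 one of 0.61 (SE 0.26, adjusted p = 0.347). IRX4 and HEY2 were thus lower and HEY1 higher with the GapmeRs in this model, at the unadjusted cutoff alone. The model takes the same effect in both sets. Within the sets, HEY2 had a log2 fold change of -1.29 in replicates 1 and 2 and of -0.26 in replicates 3 and 4. IRX4 had -0.64 and -0.56, and HEY1 passed in neither set alone. In bulk RNA, fewer cells of a type and less RNA per cell cannot be told apart. The summed cardiomyocyte markers were 13630 to 19189 CPM with the GapmeRs and 20422 to 21528 CPM with the scrambled oligonucleotide (2-sided exact permutation p = 0.0286, adjusted p = 0.114), and their part in these values was not tested.

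Replicates 1 and 2 of the knockdown experiment held more IRX4 and HEY2 RNA and less NR2F2 RNA than replicates 3 and 4. Over all genes tested, 34.3% passed the unadjusted cutoff and 19.4% the adjusted one. Of the 7 genes, 4 passed unadjusted and 3 adjusted. IRX4 averaged 91.1 ± 25.3 CPM in replicates 1 and 2 and 22.5 ± 5.70 CPM in replicates 3 and 4 (SD, n = 4 each, both treatments together), a log2 difference of 2.01 or 4.03-fold (SE 0.14, 95% interval 1.68 to 2.34, adjusted p = 1.33e-04). No library of one set overlapped the other.

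HEY2 averaged 11.5 ± 5.58 CPM in replicates 1 and 2 and 2.65 ± 0.563 CPM in replicates 3 and 4, a log2 difference of 1.98 (SE 0.21, adjusted p = 6.96e-04). NR2F2 differed in the opposite direction. It had 1.30 and 3.63 CPM with the GapmeRs and 1.53 and 1.29 CPM with the scrambled oligonucleotide in replicates 1 and 2, against 9.32 and 9.31 CPM with the GapmeRs and 7.59 and 11.5 CPM with the scrambled oligonucleotide in replicates 3 and 4. Every library of the first set was below every library of the second, with a log2 difference of -2.34 (SE 0.34, 95% interval -3.11 to -1.57, adjusted p = 0.00313).

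IRX4, HEY2 and NR2F2 were the members whose sets did not overlap, where 18.2% of all genes tested did not. HEY1 was higher in replicates 1 and 2 by a log2 difference of 0.72 (SE 0.25, adjusted p = 0.0808), and its sets overlapped. This call was lost without scrambled replicate 2 (0.43), scrambled replicate 3 (0.65) or GapmeR replicate 3 (0.66). TBX3 had a log2 difference of -0.05 and did not pass the test.

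TBX2, the atrioventricular canal repressor, had 33.3 and 17.1 CPM with the GapmeRs and 49.8 and 12.7 CPM with the scrambled oligonucleotide in replicates 1 and 2. Replicates 3 and 4 had 8.13 and 23.7 CPM with the GapmeRs and 13.6 and 14.3 CPM with the scrambled oligonucleotide. The sets overlapped and the difference of 0.91 did not pass the test (SE 0.47, adjusted p = 0.210), but it passed unadjusted without scrambled replicate 2 (1.25) or GapmeR replicate 4 (1.40) and with offsets for gene length and GC content (1.00). Without the filter on low counts it passed the adjusted cutoff at the same size (0.91, adjusted p = 1.12e-05), and over its alternatives the adjusted p reached 0.723. TBX18 was low, with 0, 49, 19 and 10 counts with the GapmeRs and 5, 2, 65 and 10 counts with the scrambled oligonucleotide. Its difference was -1.27 and did not pass the test (adjusted p = 0.470). It was -5.10 and passed (adjusted p = 0.0158, with a range up to 0.865 over its alternatives) without GapmeR replicate 2, when the only GapmeR library left in that set was at 0, so that this fitted value is no bound.

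**Figure D3:**
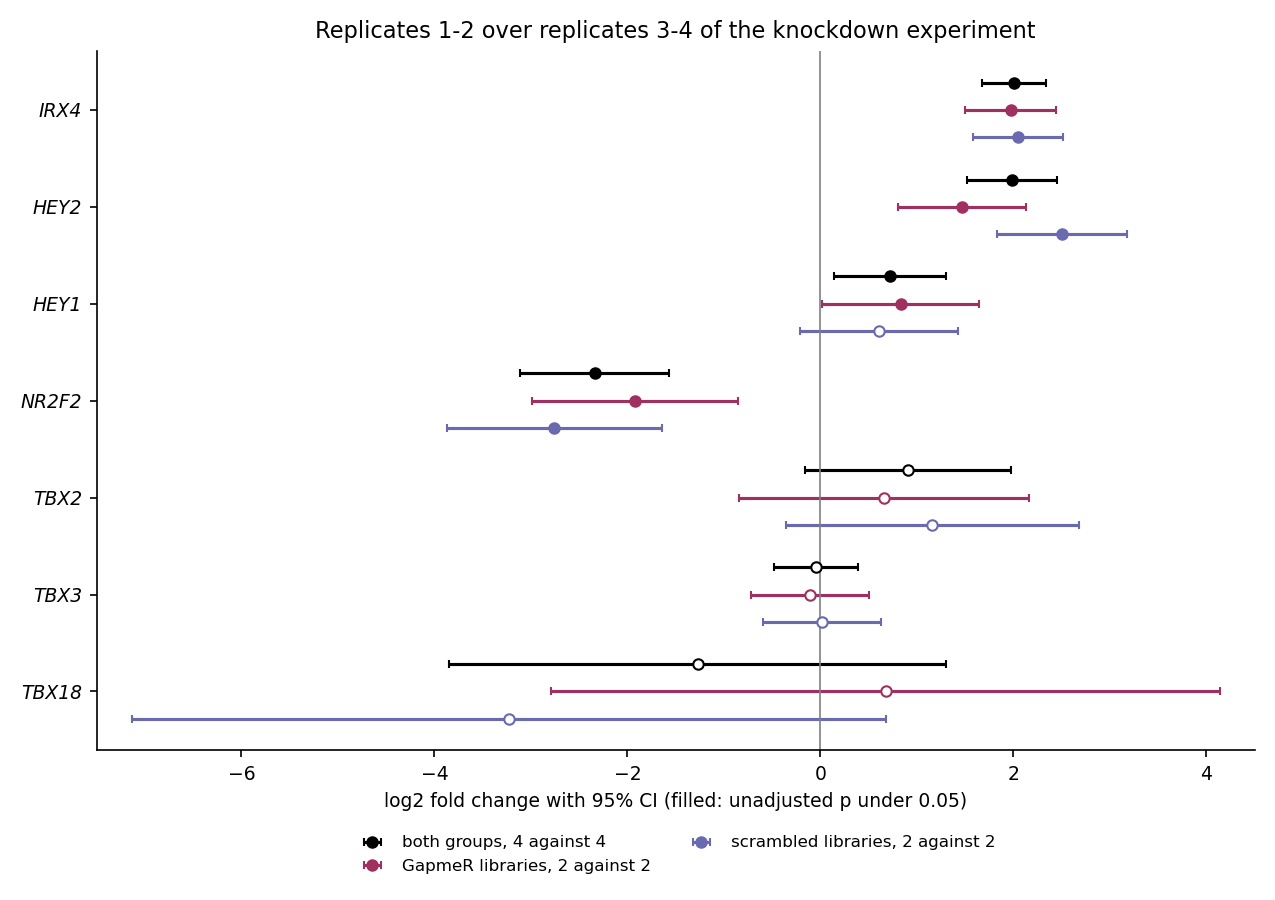
Log2 differences between replicate sets of the knockdown experiment (1 and 2 minus 3 and 4) for the 7 tested transcription factors, over all 8 libraries and within the GapmeR and scrambled libraries, with 95% intervals and filled points where the unadjusted p was under 0.05. IRX4 at 2.01 and HEY2 at 1.98 stand to the right of 0 and NR2F2 at -2.34 to the left.

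The set difference was present in either treatment. Within the GapmeR libraries, where 32.7% of all genes passed unadjusted and 17.2% adjusted, IRX4 differed by 1.97, HEY2 by 1.47 and NR2F2 by -1.92. Within the scrambled libraries, where 24.7% passed unadjusted and 8.8% adjusted, the same genes differed by 2.05, 2.50 and -2.76. HEY1 passed unadjusted in the GapmeR libraries (0.83) and not in the scrambled ones (0.61), and these values differed by 0.22 (95% interval -0.93 to 1.38).

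Ratios within a library do not depend on its depth. IRX4, HEY2 and NR2F2 were called between the sets above, so their ratios restate those differences and are no further test of them. The ratio of IRX4 to NR2F2 counts was 46.6 and 22.6 in GapmeR replicates 1 and 2 and 77.1 and 80.7 in scrambled replicates 1 and 2. It was 2.14 and 1.76 in GapmeR replicates 3 and 4 and 3.16 and 2.58 in scrambled replicates 3 and 4. In the overexpression experiment the ratio stayed between 1.59 and 2.44 with the LINC00881 plasmid and between 1.15 and 1.90 with the control plasmid. The ratios of replicates 3 and 4 of the knockdown experiment overlapped those of the plasmid libraries, and those of replicates 1 and 2 lay above both.

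The ratio of HEY2 to NR2F2 was 5.42 and 1.75 in GapmeR replicates 1 and 2 and 10.8 and 12.5 in scrambled replicates 1 and 2. It was at most 0.31 in the other libraries. The ratio of HEY2 to HEY1, the ventricular over the atrial repressor, was 3.93 and 1.91 in scrambled replicates 1 and 2. In the other libraries it lay between 0.34 and 0.79. The ratio of IRX4 to TBX2 overlapped between the sets of the knockdown experiment. It was 1.82 to 8.19 in replicates 1 and 2 and 0.691 to 2.45 in replicates 3 and 4.

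**Figure D4:**
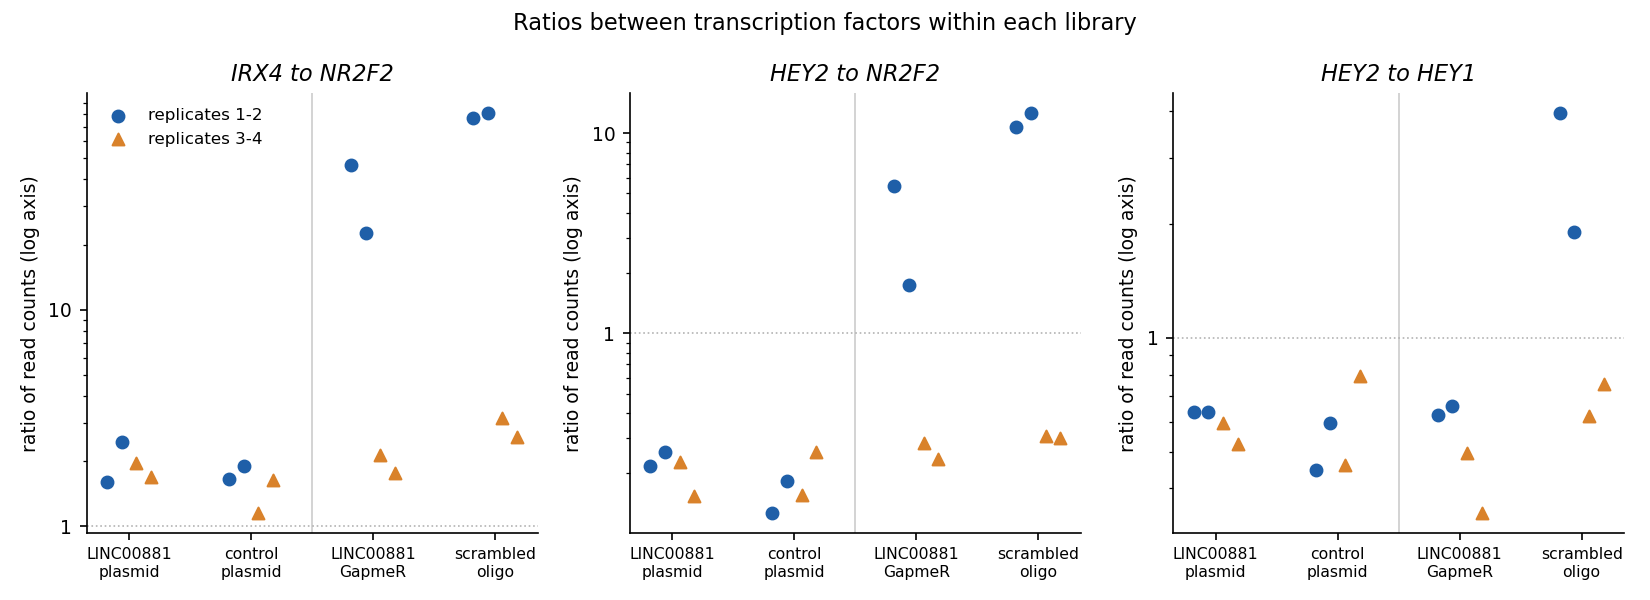
Ratios of IRX4 to NR2F2, HEY2 to NR2F2 and HEY2 to HEY1 counts in each library, on a log axis, by group, with circles for replicates 1 and 2 and triangles for replicates 3 and 4. The ratio of IRX4 to NR2F2 reaches 80.7 in scrambled replicate 2 and is at most 3.16 in all libraries outside replicates 1 and 2 of the knockdown experiment.

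Within replicates 1 and 2, where 27.1% of genes passed the unadjusted cutoff and 9.64% the adjusted one, the GapmeRs lowered HEY2 by a log2 fold change of -1.29 (SE 0.28, 95% interval -1.93 to -0.65, adjusted p = 0.0282). IRX4 had a log2 fold change of -0.64 in that set (SE 0.20, adjusted p = 0.0761). These were the 2 of 7 genes that passed unadjusted there, and HEY2 the 1 that passed adjusted. Within replicates 3 and 4, where 15.2% passed unadjusted and 1.38% adjusted, only IRX4 of the 7 passed, unadjusted. There IRX4 had -0.56 (SE 0.20, adjusted p = 0.232) and HEY2 -0.26 (adjusted p = 0.761). HEY1 did not pass in either set, at 0.72 in the first and 0.50 in the second.

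The difference of the GapmeR effect between the sets was tested directly, and 1 of 7 genes passed the unadjusted cutoff, against 22.7% of all genes, and none the adjusted one, against 5.67%. HEY2 fell further in replicates 1 and 2, with a difference of -1.03 on the log2 scale (SE 0.40, 95% interval -1.95 to -0.11, adjusted p = 0.171). The call was lost without scrambled replicate 1 (-1.03), 2 (-1.07) or 3 (-0.77) or without GapmeR replicate 3 (-0.90). For IRX4 the difference was -0.08, with an interval from -0.72 to 0.56. The fall of LINC00881 itself differed by -1.45 between the sets (SE 0.46, adjusted p = 0.108), with a log2 fold change of -2.85 in the first set and of -1.40 in the second. Its level with the GapmeRs averaged 19.0 CPM in the first set and 20.7 CPM in the second. With the scrambled oligonucleotide it averaged 137 CPM in the first set and 54.8 CPM in the second.

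The overexpression and knockdown effects were compared in a fit of all 16 libraries. None of the 7 genes passed, against 11.1% of 17782 genes at the unadjusted cutoff and 0.0956% at the adjusted one. At the unadjusted cutoff limma-voom passed IRX4 (1.48) and TBX3 (-0.46) and DESeq2 on the same genes TBX3 (-0.43). The overexpression effect minus the knockdown effect was 0.79 for IRX4, 1.21 for HEY2, -0.58 for HEY1 and -0.41 for TBX3 (SE 0.21, 95% interval -0.85 to 0.04, adjusted p = 0.505).

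Genes that these factors act on or share a chamber with were read from the same fits. Between the replicate sets, MYL2, the ventricular myosin light chain, had 109 and 161 CPM with the GapmeRs and 223 and 213 CPM with the scrambled oligonucleotide in replicates 1 and 2, against 20.1 and 23.5 CPM with the GapmeRs and 16.7 and 16.2 CPM with the scrambled oligonucleotide in replicates 3 and 4. The sets were far apart, with a log2 difference of 3.18 (SE 0.14, adjusted p = 1.65e-05). MYH7, the slow myosin heavy chain, was lower in replicates 1 and 2 (-1.21), and the gap junction gene GJA1 (0.86) and the homeobox gene IRX3 (0.61) were higher. Over all genes, 16.5% were higher and 17.8% lower in replicates 1 and 2 at the unadjusted cutoff. Of 10 ventricular genes tested, 3 were higher and 1 lower, with a median of 0.27 against -0.01 over all genes.

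Of 12 atrial genes, 4 were higher and 5 lower in replicates 1 and 2, with a median of -0.04. NPPA, which codes for atrial natriuretic peptide, differed by -1.19, the ligand gene BMP10 by -3.92, the atrial potassium channel gene KCNJ5 by 1.04 and MYH6, the fast myosin heavy chain, by 0.59. Of 9 pacemaker and conduction genes, 2 were higher and 3 lower, with a median of -0.27. ISL1, a sinus node and progenitor factor, differed by -1.32, the calcium channel gene CACNA1G by 2.03, VSNL1 by -1.41 and BMP4 by -0.75. Genes of all 3 lists thus differed in both directions.

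In the Notch pathway, 5 of 13 genes were higher and 3 lower in replicates 1 and 2, with a median of 0.05, including the target HES1 (1.01) and the receptors NOTCH4 (1.04), NOTCH3 (-1.30) and NOTCH2 (-0.50). In the BMP pathway, which acts on TBX2 and TBX3, 2 of 13 were higher and 4 lower with a median of -0.44, with BMP5 at 1.97, BMP2 at -0.86 and SMAD5 at 0.40. Of 10 retinoic acid genes, 2 were higher and 1 lower with a median of 0.07, namely the receptors RARB (1.63) and RARA (0.62) and the degrading enzyme CYP26B1 (-2.49). Among 10 relatives of the members, 3 were higher and 1 lower with a median of 0.39, with TBX20 at 0.67, IRX3 at 0.61, TBX5 at 0.57 and IRX6 at -1.23. The antisense neighbors IRX4-AS1 (2.18, adjusted p = 4.21e-04) and TBX2-AS1 (1.03) were higher too, and their reads were not assigned by strand.

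**Figure D5:**
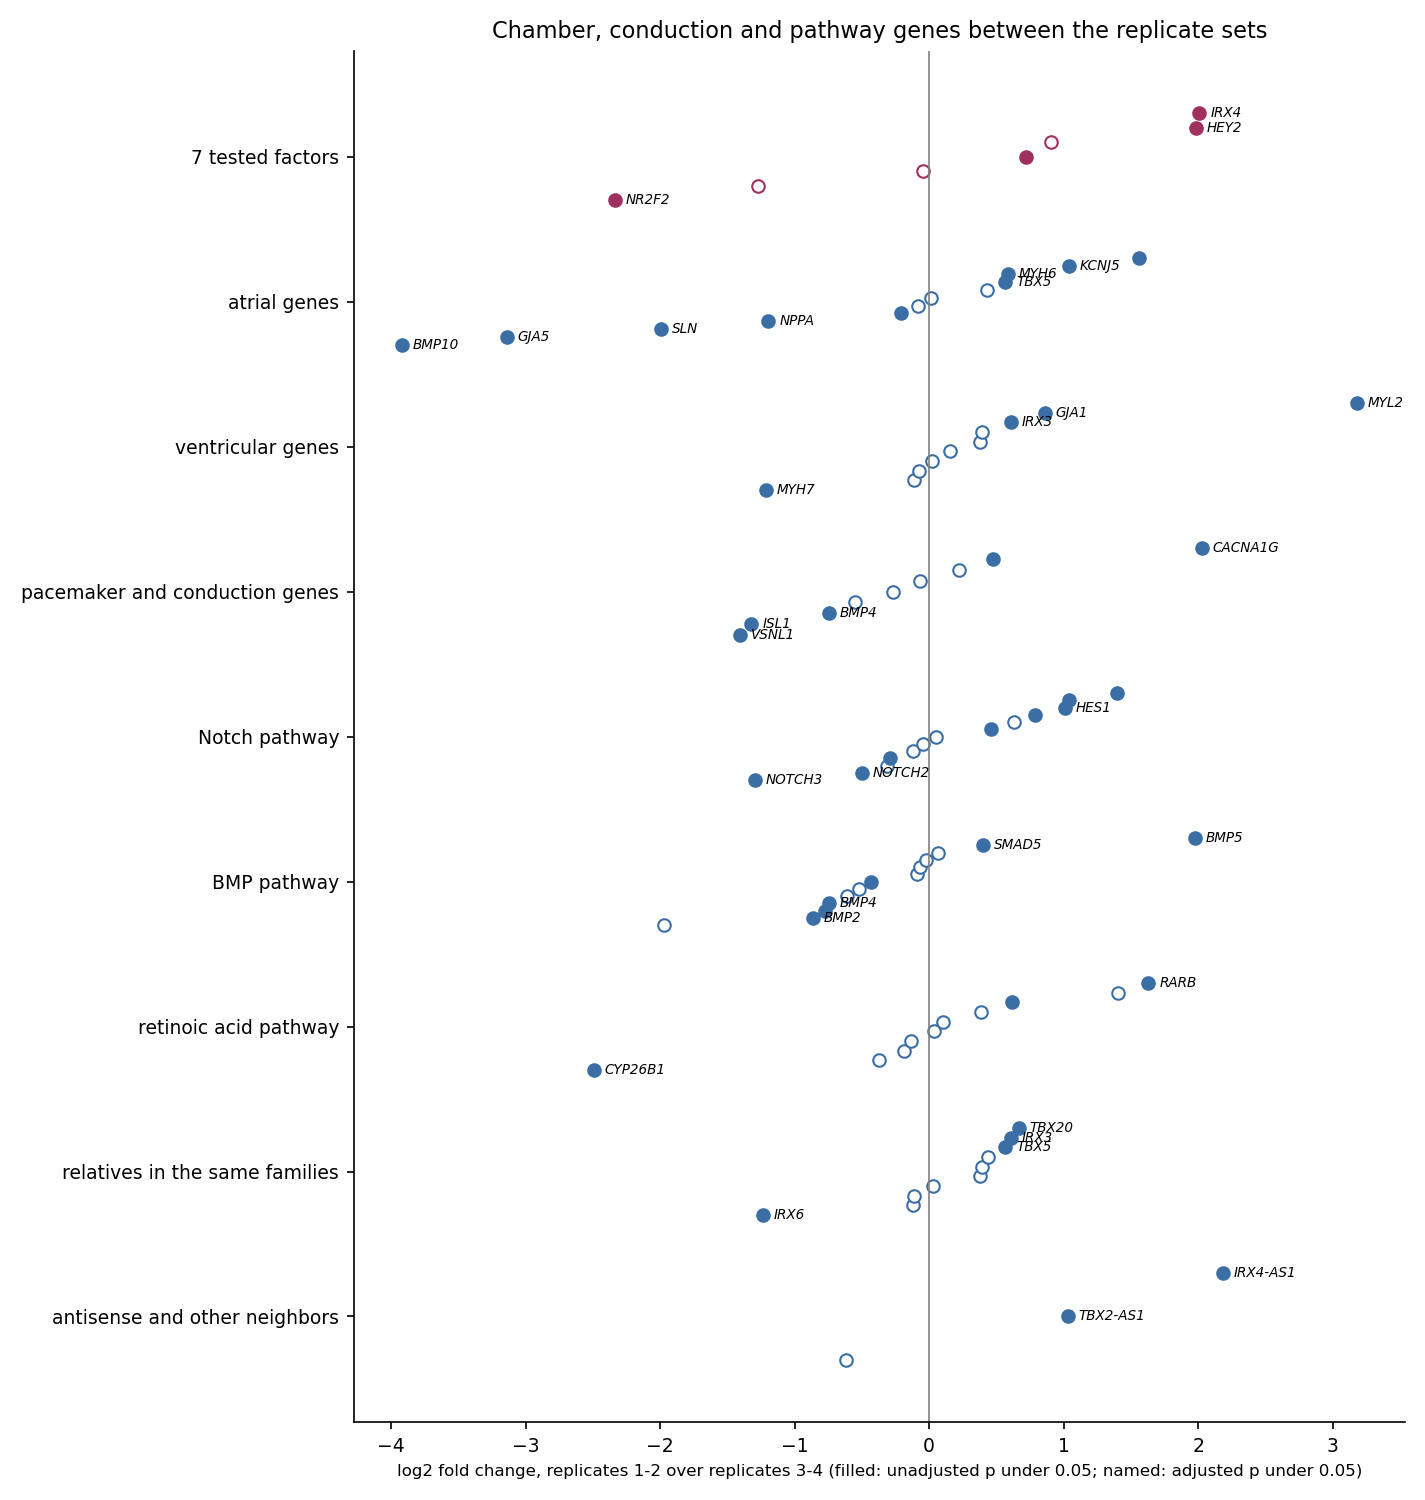
Log2 differences between replicate sets of the knockdown experiment (1 and 2 minus 3 and 4) for the genes of each list, with 1 point per tested gene, filled where the unadjusted p was under 0.05 and named where the adjusted p was. The points of each chamber list fall on both sides of 0, from MYL2 at 3.18 to BMP10 at -3.92.

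With LINC00881 overexpression, 5.87% of all genes were higher and 6.23% lower at the unadjusted cutoff. In the atrial list, 2 of 9 were higher, MYH6 (0.36, SE 0.07, adjusted p = 0.243) and KCNJ5 (0.22). MYL2 was lower (-0.25), 1 of 10 ventricular genes. The calcium channel gene CACNA1D was higher (0.35) and ISL1 lower (-0.28) among 9 pacemaker genes, the ligand JAG2 higher (0.24) among 11 Notch genes, ID3 higher (0.36) and SMAD5 lower (-0.18) among 12 BMP genes, and STRA6 (0.34) and CRABP2 (0.31) higher among 10 retinoic acid genes. None of the 8 relatives passed, and none of these genes passed the adjusted cutoff. The summed cardiomyocyte markers, MYH6 among them, were 29837 to 32277 CPM with the LINC00881 plasmid and 26492 to 29317 CPM with the control plasmid (2-sided exact permutation p = 0.0286, adjusted p = 0.114). Fibroblast markers averaged 806 CPM with the LINC00881 plasmid and 720 CPM with the control plasmid, and smooth muscle markers 769 CPM with the LINC00881 plasmid and 659 CPM with the control plasmid (exact permutation p = 0.0286, adjusted p = 0.114 for each). FN1 made up most of the fibroblast sum, at 493 CPM with the LINC00881 plasmid and 431 CPM with the control plasmid. Of 8 fibroblast markers tested, 2 were higher and 0 lower at the unadjusted cutoff. Endothelial markers averaged 229 CPM with the LINC00881 plasmid and 203 CPM with the control plasmid (exact permutation p = 0.0571, adjusted p = 0.183). KDR made up nearly all of this sum, at 228 CPM with the LINC00881 plasmid and 202 CPM with the control plasmid. Each other endothelial marker averaged at most 0.613 CPM, and only 1 of the 7 passed the filter on low counts. The part of these markers in the values above was not tested.

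With the GapmeRs over all 8 libraries, 4.2% of all genes were higher and 4.15% lower at the unadjusted cutoff. MYL4 (-0.37), MYL7 (-0.37) and MYH6 (-0.59) were lower among 12 atrial genes and none of 10 ventricular genes passed. CACNA1D was lower (-1.03) among 9 pacemaker genes and HES1 higher (0.85) among 13 Notch genes. BMP7 was lower (-0.66) and SMAD1 (0.39) and SMAD5 (0.45) higher among 13 BMP genes, CRABP2 (0.76) and RARG (0.85) were higher among 10 retinoic acid genes, and none of the 10 relatives passed. None of these genes passed the adjusted cutoff. The summed cardiomyocyte markers, MYH6 and MYL7 among them, averaged 16574 CPM with the GapmeRs and 21015 CPM with the scrambled oligonucleotide (exact permutation p = 0.0286, adjusted p = 0.114, or 0.0571 and 0.183 without TMM scaling), and their part in these values was not tested.

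Markers of other cell types also differed between the replicate sets, and their part in the differences of IRX4, HEY2 and NR2F2 was not tested. The summed level of 5 smooth muscle markers was 267 to 481 CPM in replicates 1 and 2 and 953 to 1225 CPM in replicates 3 and 4, and 4 of the 5 were lower in the first set. The 8 hepatic and endoderm markers summed to 57.7 to 123 CPM in replicates 1 and 2 and 160 to 191 CPM in replicates 3 and 4. Neural markers, 5 genes of which 1 was at 0 in all 16 libraries, summed to 0.574 to 2.704 CPM in replicates 1 and 2 and 9.22 to 12.7 CPM in replicates 3 and 4. PAX6 made up most of this sum in replicates 3 and 4, with means of 9.16 CPM with the GapmeRs and 9.45 CPM with the scrambled oligonucleotide. The sums of endothelial and epicardial markers stood the other way round, each through 1 gene in the main. The 7 endothelial markers summed to 77.3 to 121 CPM in replicates 1 and 2 and 34.8 to 54.4 CPM in replicates 3 and 4, and the 9 epicardial markers to 58.3 to 104 CPM in replicates 1 and 2 and 43.6 to 55.3 CPM in replicates 3 and 4. KDR averaged 98.7 CPM with the GapmeRs and 85.8 CPM with the scrambled oligonucleotide in replicates 1 and 2, against 37.9 CPM with the GapmeRs and 51.5 CPM with the scrambled oligonucleotide in replicates 3 and 4. The other 6 endothelial markers averaged at most 0.625 CPM, and PECAM1, CDH5, EMCN, TIE1 and VWF were at or near 0 and not higher in replicates 1 and 2. Of 2 endothelial markers tested, both were higher in replicates 1 and 2 and passed the adjusted cutoff. LRRN4 averaged 75.6 CPM with the GapmeRs and 72.4 CPM with the scrambled oligonucleotide in replicates 1 and 2, against 50.5 CPM with the GapmeRs and 43.2 CPM with the scrambled oligonucleotide in replicates 3 and 4, and the other 8 epicardial markers averaged at most 1.85 CPM. Of 6 epicardial markers tested, 3 were higher and 1 lower in replicates 1 and 2, and 2 passed the adjusted cutoff. Other sums overlapped between the sets, though single genes in them differed. The 9 fibroblast markers summed to 220 to 347 CPM in replicates 1 and 2 and 214 to 310 CPM in replicates 3 and 4. Of 8 tested, 3 were higher and 4 lower in replicates 1 and 2, and 5 passed the adjusted cutoff. The 4 pluripotency markers summed to 0.398 to 6.11 CPM in replicates 1 and 2 and 4.07 to 5.99 CPM in replicates 3 and 4. Of 2 tested, both were lower, at the unadjusted cutoff alone. The 10 cardiomyocyte markers summed to 13630 to 21528 CPM in replicates 1 and 2 and 18641 to 21355 CPM in replicates 3 and 4. Of these, 2 were higher and 4 lower, and 5 passed the adjusted cutoff. Mitochondrial transcripts took 22.7% to 23.6% of counts in replicates 1 and 2 and 18.7% to 19.8% in replicates 3 and 4.

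The genes whose levels followed each factor most closely were ranked by Pearson's r of log2 CPM over the 16 libraries, each experiment centered on its mean, among 13244 genes. They share libraries, depth and the set difference, so r is a description. IRX4 was followed by RAMP1 (0.976) and MCM2 (0.975), HEY2 by SYT13 (0.968) and VCAM1 (0.966), and NR2F2 by BRINP1 (0.976) and AUTS2 (0.973). HEY1 was nearest to CCDC181 (0.905) and HSPA13 (0.898), TBX2 to LDB1 (0.909) and MIDN (0.883), and TBX18 to SLC9A9 (0.885) and RABEPK (0.876). PPP1R18 (0.880) was among the 2 nearest to TBX3. The genes named for IRX4, HEY2 and NR2F2 had higher r than those named for the other 4 factors.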

How the data were processed

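RNA-Seq of 16 hiPSC-CM libraries in 4 groups of 4 was analysed. The authors aligned reads with STAR 2.7.3a and the deposited table holds raw counts per gene symbol from featureCounts, unstranded although the kit keeps strand. All columns were used (0 left out). Annotation came from GENCODE 29, which matched 40119 symbols (67.6%), while the study names a later release.

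Counts were filtered (filterByExpr), scaled by TMM within each experiment and tested with the edgeR 4.0.16 quasi-likelihood test in R 4.3.3, with Benjamini-Hochberg adjustment over all tested genes. Models held the group, the group and replicate set, or all 16 libraries. The script was tested on simulated data. CPM values are TMM-scaled. Intervals are approximate 95% confidence intervals of the log2 fold change, with a standard error taken from the spread between samples. The submitters call the samples biological replicates, but no label says they come from separate differentiations, so p-values measure only the spread between these samples. Same-numbered samples correlated at -0.0918 to 0.133 in the overexpression experiment and at 0.0795 to 0.168 in the knockdown experiment. Not every correlation was above 0.1, so numbers were not used as pairs.

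All 9 members are named, with up to 4 genes per list by smallest p and the 2 genes most alike. Items withheld for evaluation are not reported here, and list counts leave them out. The members and lists were chosen with earlier results of these data known. Alternatives were DESeq2 1.42.0, limma-voom (limma 3.58.1), no filter, offsets for gene length and GC content, a replicate block, a fit of all libraries, the sets alone or as a term, and leaving out each library.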

Additional observations from a re-analysis of the deposited data

Results flagged for a closer look

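In groups of 4 libraries, a sample was listed where its gap to the nearest other library took more of the range of the group than Dixon's 95% critical value allows. Over 40 groups tested, chance flags about 1 in 20. NR2F1 was flagged in GapmeR replicate 4 (0.157 CPM, 6 counts), scrambled replicate 3 (0.129 CPM, 5 counts) and control plasmid replicate 2 (0.0746 CPM, 1 count). SHOX2 was flagged in GapmeR replicate 3 (0.108 CPM, 3 counts) and LINC00881 plasmid replicate 4 (0.0719 CPM, 1 count). In these groups the other libraries were at 0, so any count takes the whole range. The flags for NR2F1 and SHOX2 were thus fixed by the zeros, and the rate of 1 in 20 does not apply to them. TBX2 stood out in scrambled replicate 1 (49.8 CPM). TBX18 stood out in scrambled replicate 3 (1.68 CPM) and control plasmid replicate 4 (2.10 CPM).

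The effect of the GapmeRs on HEY2 in replicates 1 and 2 minus that in replicates 3 and 4 was -1.03 on the log2 scale, by a test of the difference itself (edgeR, past the unadjusted cutoff, adjusted p = 0.171). Both GapmeR libraries were below both scrambled libraries in replicates 1 and 2, and the pairs overlapped in replicates 3 and 4.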

How the results depend on the processing

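Leaving out libraries or sets can leave a group with 1 or 2 samples, whose spread is then taken from the other groups. With LINC00881 overexpression, 1737 genes passed, against 147 in the fit of all 16 libraries and 1014 to 2611 with a library left out (1143 without LINC00881 plasmid replicate 1, 1014 without its replicate 3, 1067 without control plasmid replicate 3 and 2611 without control plasmid replicate 2). None of the 7 transcription factors passed, against 1 with limma-voom (IRX4, 0.23) and 0 to 1 with a library left out (IRX4 without control plasmid replicate 2, 0.27). With the GapmeRs, 1514 genes passed (1159 to 1690 with a library left out), against 2393 with limma-voom, 2611 without the filter, 3342 in the fit of all libraries, 2504 with the set as a term, 3376 in replicates 1 and 2 alone and 5034 in replicates 3 and 4 alone. Of the 7 factors 0 passed, against 2 in the fit of all libraries, 3 with the set as a term, 2 in replicates 1 and 2 alone, 1 in replicates 3 and 4 alone and 0 to 1 with a library left out (1 without scrambled replicate 2 or 3).

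With a library left out, 4924 to 8125 genes (6225 with all libraries) and 3 to 5 factors (4 with all libraries) passed between sets, 2981 to 6360 genes (4123 with all libraries) and 0 to 3 factors (1 with all libraries) for the set difference in the knockdown effect (6360 genes without GapmeR replicate 2, 3 factors without GapmeR replicate 1), and 1592 to 2564 genes (1974 with all libraries) and 0 to 2 factors (0 with all libraries) for the overexpression minus the knockdown effect (2 without scrambled replicate 3, 1 without GapmeR replicate 2 or scrambled replicate 2). The set difference in the knockdown effect gave 2 factors without the filter. The overexpression minus the knockdown effect gave 1 factor with DESeq2, 2 with limma-voom and 1 with length and GC offsets. These offsets moved the split of calls to 1025 higher and 476 lower (761 and 753 without them) with the GapmeRs, 3855 and 2131 (2995 and 3230 without them) between sets and 638 and 1351 (989 and 985 without them) for the overexpression minus the knockdown effect. At an adjusted p of 0.05 with the GapmeRs edgeR called 0 genes and DESeq2 194.

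The replicate numbers did not pair all samples. GapmeR replicates 2, 3 and 4 correlated best with the scrambled library of their own number, and GapmeR replicate 1 with scrambled replicate 2. With the LINC00881 plasmid, only replicate 2 correlated best with its own number. A replicate block gave 1920 genes with overexpression, 1890 with the GapmeRs and 2494 for their difference, and 2 of the 7 factors with the GapmeRs (IRX4, -0.61, and HEY2, -0.78) and 2 for the difference (IRX4, 0.78, and HEY2, 0.94), at the unadjusted cutoff. Under the block TBX18 with the GapmeRs was -0.24.

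No member that had passed changed direction. Directions of uncalled values turned for TBX2 with overexpression (-0.11) and for TBX3 between sets (0.15) with length and GC offsets, and, in replicates 3 and 4 alone, NR2F2 (-0.00843), TBX2 (0.22) and TBX18 (-1.09) with the GapmeRs. With a library left out, signs turned for TBX2 (-0.0415 to 0.0627) and TBX18 (-0.28 to 0.00171) with overexpression, and for NR2F2 (-0.22 to 0.76), TBX2 (-0.47 to 0.61) and TBX18 (-0.82 to 1.76) with the GapmeRs. They turned for TBX3 between sets (-0.20 to 0.0922), and for HEY1 (-0.21 to 0.79), TBX2 (-1.20 to 0.78), IRX4 (-0.32 to 0.10), TBX3 (-0.46 to 0.12), NR2F2 (-0.0946 to 1.37) and TBX18 (-3.78 to 4.89) in the set difference in the knockdown effect. For the overexpression minus the knockdown effect they turned for NR2F2 (-0.87 to 0.10), TBX2 (-0.60 to 0.48) and TBX18 (-1.98 to 0.61). The cause was not tested.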

Other observations

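In the test of whether the GapmeR effect differed between the replicate sets, 22.7% of all genes tested passed the unadjusted cutoff and 5.67% the adjusted one. Of 10 ventricular genes, 0 were higher and 4 lower by the effect in replicates 1 and 2 minus that in replicates 3 and 4, with a median of -0.67 on the log2 scale against 0.00 over all genes. The myosin genes MYL3 (-0.84, SE 0.12, edgeR, adjusted p = 0.00894) and MYH7 (-1.14, SE 0.18, adjusted p = 0.0123) passed the adjusted cutoff, and MYL2 (-1.09, SE 0.26, adjusted p = 0.0503) and IRX5 (-2.08, SE 0.55, adjusted p = 0.0651) the unadjusted one alone. Of 12 atrial genes, 1 was higher and 5 were lower, with a median of -0.09, and 3 passed the adjusted cutoff. These were MYL7 (-0.81, adjusted p = 0.0220), KCNJ5 (0.83, adjusted p = 0.0378) and GJA5 (-8.40, adjusted p = 0.0230). GJA5 was at 0 CPM with the GapmeRs in replicates 1 and 2, so that its fitted value is no bound. Cardiomyocyte markers, which include MYH7 and MYL7, moved like these chamber lists, with 1 higher and 5 lower of 10 and a median of -0.41. So did smooth muscle markers, with 0 higher and 3 lower of 5 and a median of -0.66. Their part in the chamber genes' values was not tested. Of 10 retinoic acid genes, 3 were higher and 0 lower, with a median of 0.60.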
